A study of Homo sapiens with 27 samples.

Results

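The miRNAs described here are 10 mature products of mirtron hairpins, hsa-miR-877-5p, hsa-miR-877-3p, hsa-miR-1224-5p, hsa-miR-1225-5p, hsa-miR-1225-3p, hsa-miR-1226-3p, hsa-miR-1227-3p, hsa-miR-1229-3p, hsa-miR-1236-3p and hsa-miR-1238-3p, written below without the species prefix. They were chosen by name. Of the 10, 9 are among the 2276 mature miRNAs that appear in at least 1 of the 9 deposited count tables. Small RNA was sequenced from 27 libraries in 9 groups of 3, and each group has its own table. The study asked how loss of USB1, an exonuclease best known for maturing the 3' end of U6 RNA, alters miRNAs.

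The 15 libraries of the established embryonic stem cell line H1 (hESC) came from 5 groups. The first is USB1 mutants, made with CRISPR/Cas9 and carrying a small deletion in USB1 according to the methods of the study. USB1 mutants with an inducible wild-type USB1 transgene (iUSB1-WT) were sequenced without Dox and with Dox, the inducer doxycycline. USB1 mutants with shPAPD5 carry hairpins against PAPD5, which extends RNA 3' ends with adenosines. All 4 of these groups share the mutation, and WT cells are their reference. Both the iUSB1-WT and the shPAPD5 cassettes were placed at the AAVS1 locus. The 12 K562 libraries, from an established chronic myelogenous leukaemia line, came from USB1 KO cells with shPARN, USB1 KO cells, Control cells with shPARN, and Control cells. PARN is a 3' exonuclease that removes adenosines. The K562 knockout was made with Cas9, and single-cell clones were screened. Edited hESCs were picked by hand after seeding at low density, and silent mutations were introduced to ease the editing. In both lines, USB1 loss and other traits of the picked cells cannot be told apart. A non-targeting hairpin is given for none of the 9 groups, so lowering PAPD5 or PARN and expressing any hairpin cannot be told apart. The study calls its miRNA-seq replicates biological. The labels leave unsaid if each library is a culture of its own, so the p-values reflect only how far these libraries differ, which may be in part technical.

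Most animal miRNAs are cut out of a long primary transcript by the nuclear enzyme Drosha with its partner DGCR8. A mirtron skips that step. It is a short intron that the spliceosome removes and that, once debranched, folds into a hairpin which Dicer can cut into a 5p and a 3p arm. The ends of such a hairpin are therefore set by the splice sites, and its level depends on transcription and splicing of its host gene. miR-1225 has also been described as a simtron, a related product that does not need the splicing reaction.

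All 8 RefSeq hairpins that give the 10 miRNAs start with GU and end with AG, the first and last bases of most introns, and each coincides base for base with an intron of the GENCODE v44 annotation (GRCh38). Of all 1562 hairpins in the RefSeq table, 36 (2.305%) start and end this way, and 23 (1.472%) fill an annotated intron. The hairpins of the 2 most abundant mirtrons and of the least detected one are shown, 5′ to 3′, with the splice-site bases in capitals.
MIR877: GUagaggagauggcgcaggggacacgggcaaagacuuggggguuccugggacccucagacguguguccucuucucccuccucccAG
MIR1226: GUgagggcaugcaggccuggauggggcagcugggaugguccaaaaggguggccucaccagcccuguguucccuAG
MIR1225: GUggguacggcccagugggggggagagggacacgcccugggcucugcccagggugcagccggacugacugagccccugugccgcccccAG

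MIR877 lies at chr6:30584332-30584417 on the plus strand (GRCh38.p14) and is intron 13 of 24 of ABCF1, which encodes a protein of translation initiation. MIR1226, at chr3:47849555-47849629 on the plus strand, is intron 20 of 21 of the RNA helicase gene DHX30. MIR1225, at chr16:2090195-2090284 on the minus strand, is intron 45 of 45 of PKD1, which encodes polycystin-1. The other hosts are VWA5B2 for MIR1224 (intron 19 of 19), PLEKHJ1 for MIR1227 (intron 4 of 5), the glycosyltransferase gene MGAT4B for MIR1229 (intron 13 of 14), NELFE, which encodes a subunit of the negative elongation factor, for MIR1236 (intron 3 of 10), and the autophagy protease gene ATG4D for MIR1238 (intron 8 of 9). The hairpins are 69 to 102 bases long, and their G+C content is 54.9 to 74.44%, with a median of 67.67%. The median of the other hairpins in the table is 51.91%.

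**Figure D1:**
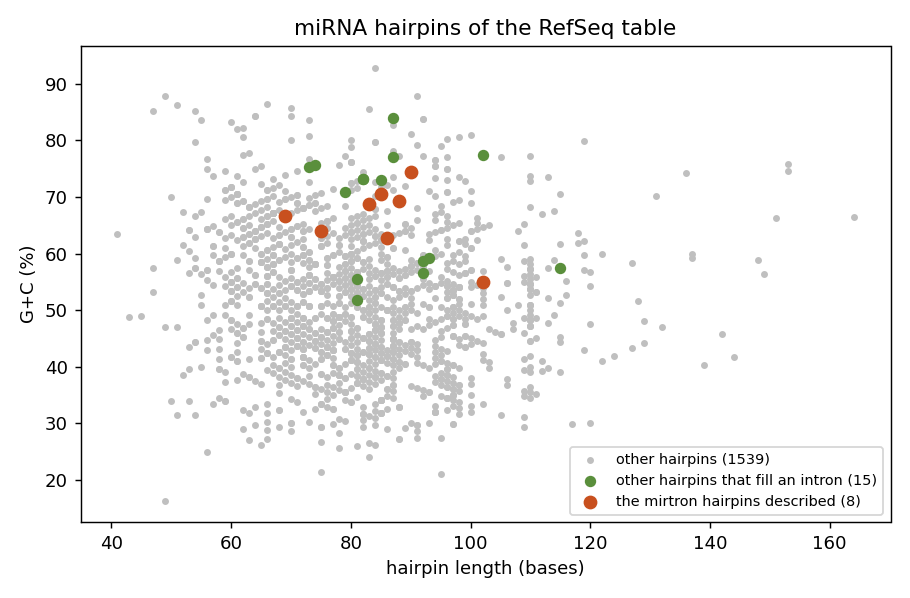
Each point is 1 miRNA hairpin of the RefSeq table, by its length in bases (x axis) and its G+C content in percent (y axis). The 8 mirtron hairpins described here and the 15 other hairpins that fill an annotated intron all lie above 51.91% G+C, the median of the hairpins outside the 8, except MIR6831 at 51.85%.

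The 10 mature miRNAs follow, with the seed (bases 2 to 8, the part that pairs with target mRNAs) in capitals. The seed bears on what a miRNA can bind, and the whole sequence on whether its reads can be told from those of others.
hsa-miR-877-5p: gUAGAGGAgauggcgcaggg
hsa-miR-877-3p: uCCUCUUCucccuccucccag
hsa-miR-1224-5p: gUGAGGACucgggaggugg
hsa-miR-1225-5p: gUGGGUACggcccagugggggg
hsa-miR-1225-3p: uGAGCCCCugugccgcccccag
hsa-miR-1226-3p: uCACCAGCccuguguucccuag
hsa-miR-1227-3p: cGUGCCACccuuuuccccag
hsa-miR-1229-3p: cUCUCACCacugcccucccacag
hsa-miR-1236-3p: cCUCUUCCccuugucucuccag
hsa-miR-1238-3p: cUUCCUCGucugucugcccc

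The 3 products named 5p begin at the first base of the intron, so each opens with gu. Of the 7 named 3p, 6 end at its last base and so close with ag, and miR-1238-3p stops 2 bases before it. The 10 seeds are all different, and 0 other miRNAs of the RefSeq table share any of them. The longest run that a member shares with another listed miRNA is 8 to 13 bases, the 13 being between miR-877-3p and miR-7111-3p.

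The hESC libraries held 12258450 to 35734485 miRNA counts and the K562 libraries 1530929 to 13183152, with USB1 KO library 3 the shallowest. The 8 hESC marker miRNAs, stem cell miRNAs such as miR-372-3p, summed to 178501 to 397742 CPM (counts per 1000000 miRNA counts of a library) in hESCs and to 0.653 to 829 in K562, where Control libraries 1 (782) and 2 (829) stood apart from the others (at most 19.2). The blood markers summed to 92.8 to 339 CPM in hESCs and to 6499 to 11269 in K562. Among the 6 fibroblast markers, which summed to 522 to 12562 CPM in K562, miR-143-3p alone reached 12190 CPM in USB1 KO shPARN library 1 and 5575 in USB1 KO library 3. In counts over all miRNAs, WT library 1 and USB1 mutant library 1 lay farther from the other 2 of their groups (chi-squared per degree of freedom of 577 to 611 and of 1937 to 2087) than those did from each other (22.2 and 83.7).

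A table holds a miRNA only if its first library has a count for it, so a miRNA missing from a table is called unlisted, with unknown counts in the other 2 libraries. miR-877-5p, miR-877-3p, miR-1226-3p and miR-1227-3p were listed in all 9 tables, miR-1229-3p and miR-1236-3p in 8, miR-1224-5p in 7 and miR-1238-3p in 6. miR-1225-3p was listed in 2, with 2, 0 and 0 counts in USB1 mutants and 1, 1 and 0 in USB1 KO cells, and miR-1225-5p in 0. Both arms of MIR1225 were thus at or near the limit of these libraries.

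The mirtrons took a small part of the miRNA counts, 179 to 319 CPM of library totals in hESCs and 103 to 147 CPM in K562. miR-877-5p alone held 69.1% of the mirtron counts in hESCs and 60.9% in K562, miR-1226-3p held 16.6% and 25.9%, and miR-877-3p 10.8% and 9.56%. By mean level miR-877-5p ranked 122 of 1251 miRNAs in hESCs and 215 of 1080 in K562, and miR-1226-3p ranked 232 in hESCs. The levels that follow are CPM after TMM scaling within each line, and the order of the mirtrons was miR-877-5p, miR-1226-3p, miR-877-3p and miR-1227-3p in both lines. The ranges of miR-877-3p and miR-1226-3p overlapped, at 20.7 to 27.7 against 22.2 to 51.4 CPM over the hESC libraries and at 6.82 to 16.9 against 16.5 to 53.2 CPM over the K562 libraries.

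**Figure D2:**
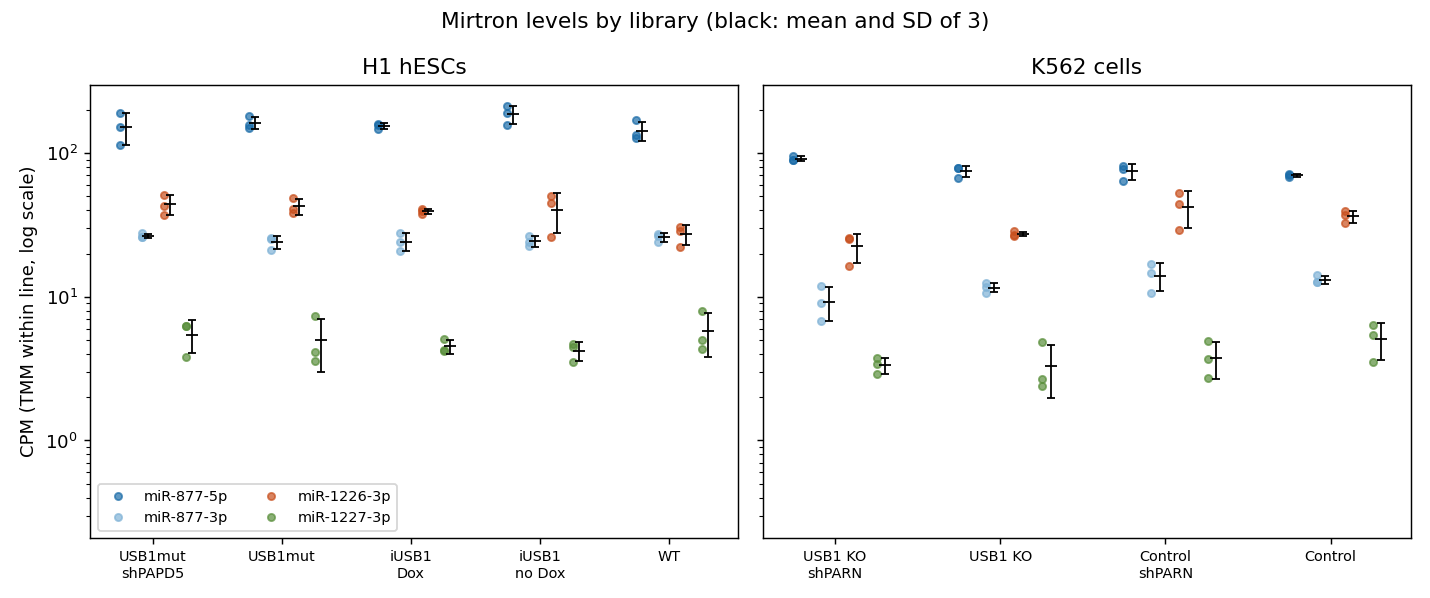
Points are the CPM of each library (log scale, TMM within the line) for 4 mirtrons in the 5 hESC groups (left panel) and the 4 K562 groups (right panel), with means and SDs in black (n = 3). miR-1226-3p averaged at least 39.5 CPM in each of the 4 groups with the USB1 mutation and 27.3 CPM in WT cells.

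In USB1 mutants against WT hESCs, 0 of the 7 mirtrons that passed the filter on low counts were called at an edgeR adjusted p under 0.05, where 7.41% of all 998 miRNAs tested were called. That background itself moved, with 74 calls here, 37 without mutant library 1 and 0 in a fit of these 2 groups alone. At an unadjusted p under 0.05 there was 1 mirtron (23.7% of all miRNAs), and DESeq2 called 0 (10.8%). The member with the lowest p was miR-1226-3p, with 48.8, 38.3 and 41.0 CPM in USB1 mutants and 22.2, 30.8 and 28.9 CPM in WT cells. The libraries of the 2 groups did not overlap for this miRNA and for miR-1229-3p, as for 25.9% of all miRNAs tested. The log2 change of miR-1226-3p was 0.64 (SE 0.22, edgeR adjusted p = 0.0929), and 0.50 (adjusted p = 0.224) without WT library 1 and 0.53 (adjusted p = 0.268) without mutant library 1. The 7 log2 changes had a median of 0.18, beside 0.04 over all miRNAs tested. In bulk RNA, fewer cells that make a miRNA and less of it per cell cannot be told apart.

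The other arm of this hairpin, miR-1226-5p, is not among the 10. It had 4.06, 4.06 and 6.15 CPM in USB1 mutants and 2.55, 3.67 and 3.57 CPM in WT cells. The 5p share of the miR-1226 counts averaged 10.1% ± 2.71 in USB1 mutants and 10.6% ± 0.351 in WT cells (SD, n = 3 each). This share was looked at after the values were seen and was not tested.

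For miR-877, the most abundant mirtron hairpin, neither arm was called. miR-877-5p had 182, 158 and 150 CPM in USB1 mutants and 169, 133 and 128 CPM in WT cells, a log2 change of 0.18 (SE 0.19, edgeR adjusted p = 0.615). miR-877-3p had 25.4, 25.7 and 21.3 CPM in USB1 mutants and 27.3, 23.9 and 26.4 CPM in WT cells, a log2 change of -0.10 (SE 0.17, adjusted p = 0.771). Libraries of the 2 groups overlapped for both arms.

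Among the low members, miR-1229-3p had 42, 59 and 24 counts in USB1 mutants and 24, 14 and 17 counts in WT cells, a log2 change of 0.87 (SE 0.42, edgeR adjusted p = 0.225). miR-1227-3p had 7.34, 4.15 and 3.60 CPM in USB1 mutants and 8.03, 4.30 and 5.03 CPM in WT cells. miR-1224-5p had 13, 28 and 22 counts in USB1 mutants and 3, 24 and 17 in WT cells. The 3 WT libraries differed more from each other for miR-1224-5p than the group means did, and miR-1236-3p, with 5, 13 and 9 counts in USB1 mutants and 8, 13 and 4 in WT cells, overlapped as well.

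The 3 other mutant-derived groups were each compared with the same WT libraries, so their changes share a reference and are not independent. Called mirtrons numbered 0 of 7 in each, where 8.22% of miRNAs were called for iUSB1-WT with Dox, 4.31% without Dox and 0% for shPAPD5. At an unadjusted p under 0.05 there was 1 mirtron with Dox (23.2% of all miRNAs), 1 without Dox (18.0%) and 2 with shPAPD5 (130 of 998 miRNAs). DESeq2 called 0 mirtrons in each, where it called 11.2%, 6.31% and 2.61% of all miRNAs. miR-1226-3p had 39.9, 37.8 and 40.8 CPM with Dox, 50.0, 26.2 and 45.1 CPM without Dox, and 37.4, 51.4 and 43.2 CPM with shPAPD5, all but the 26.2 above the 3 WT libraries. Its groups did not overlap with Dox (30.5% of all miRNAs tested) and with shPAPD5, where miR-1229-3p did not overlap either (19.3%), and without Dox 0 mirtrons were separated in this way (22.6%). Its log2 change against WT was 0.53 with Dox (SE 0.22, edgeR adjusted p = 0.167), 0.57 without Dox (SE 0.22, adjusted p = 0.187) and 0.69 with shPAPD5 (SE 0.22, adjusted p = 0.215). Without library 2 of the group without Dox, the one at 26.2 CPM, the change there was 0.80 and was called (adjusted p = 0.0434).

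miR-877-5p, against the same WT libraries, had 157, 147 and 161 CPM with Dox, 212.5, 157 and 191 CPM without Dox, and 114, 191 and 152 CPM with shPAPD5. Its log2 changes were 0.11, 0.38 and 0.09 (SE 0.19 to 0.20, edgeR adjusted p of 0.324 to 0.894). miR-877-3p stayed between 20.7 and 27.7 CPM in all 15 hESC libraries, and its log2 changes against WT in these 3 groups were -0.10, -0.08 and 0.04. miR-1229-3p had 36, 17 and 22 counts with Dox, 43, 7 and 24 counts without Dox, and 37, 49 and 22 counts with shPAPD5. Its log2 change over WT was 0.44 with Dox (SE 0.43, edgeR adjusted p = 0.586), 0.18 without Dox (SE 0.43, adjusted p = 0.887) and 0.97 with shPAPD5 (SE 0.42, adjusted p = 0.342).

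The direct comparisons within the mutant background asked what restoring USB1 or lowering PAPD5 changes. No group without the transgene received Dox, so Dox itself and the USB1 it induces cannot be told apart. With Dox against without Dox, 0 of 7 mirtrons were called, as were 0% of all miRNAs, and shPAPD5 against the USB1 mutants gave 0 of 7 and 0% as well. In both comparisons 0 mirtrons had an unadjusted p under 0.05 (4.51% and 11.6% of all miRNAs) and DESeq2 called 0 (0.1% and 0.802%). For miR-1226-3p the log2 change was -0.04 with Dox against without Dox (SE 0.22) and 0.04 for shPAPD5 against USB1 mutants (SE 0.22). For miR-877-5p these were -0.27 (SE 0.19) and -0.10 (SE 0.19), and for miR-877-3p -0.01 and 0.14 (SE 0.17 each). The groups of shPAPD5 against USB1 mutants did not overlap for 1 of the 7 mirtrons, miR-877-3p (15.7% of all miRNAs tested), and those with and without Dox for 0 (13.6%).

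**Figure D3:**
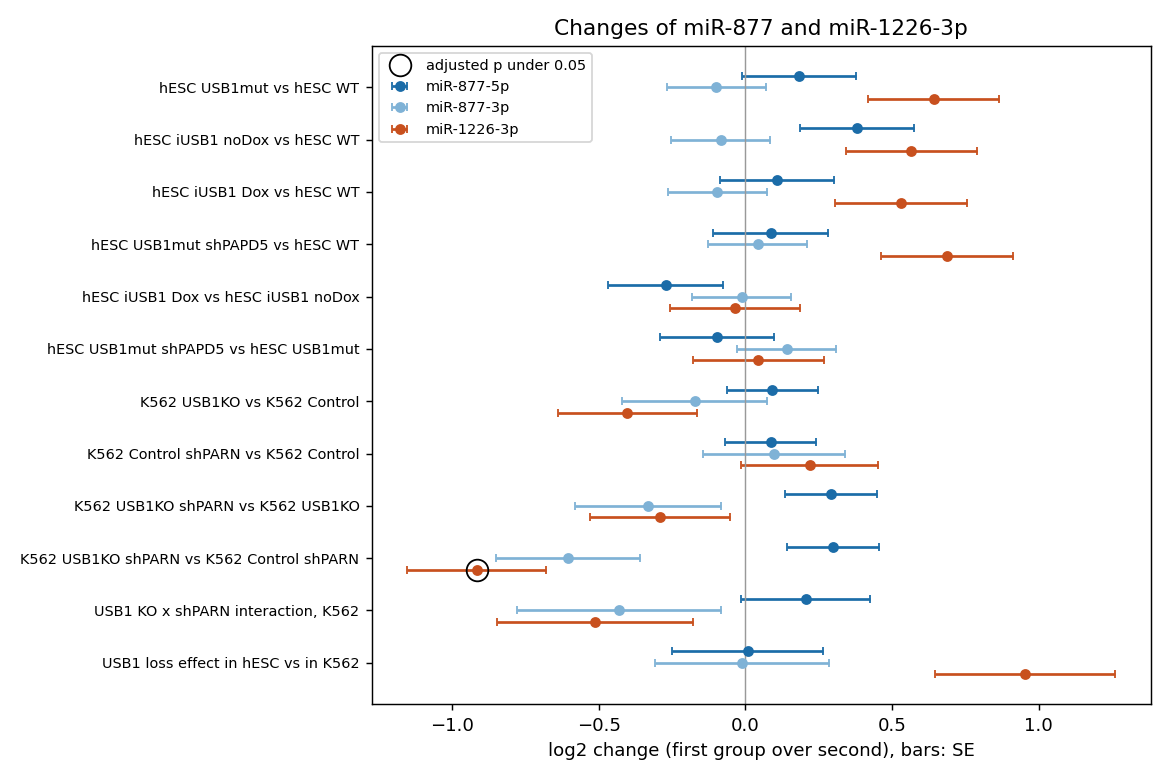
Points are log2 changes of miR-877-5p, miR-877-3p and miR-1226-3p (x axis, first group over second) in 12 comparisons, bars are the SE, and a ring marks an edgeR adjusted p under 0.05. miR-1226-3p lay between 0.53 and 0.69 in the 4 hESC comparisons that share the WT libraries, and its only ring is at -0.91 in USB1 KO shPARN against Control shPARN cells.

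In K562, 4 mirtrons passed the filter, both arms of miR-877, miR-1226-3p and miR-1227-3p. In USB1 KO against Control cells 0 of 4 were called, where 5.11% of 881 miRNAs were. 0 had an unadjusted p under 0.05 (17.6% of all miRNAs), and DESeq2 called 0 (7.15%). miR-1226-3p had 28.6, 26.9 and 26.7 CPM in USB1 KO cells and 39.3, 32.6 and 36.9 CPM in Control cells, a log2 change of -0.40 (SE 0.24, edgeR adjusted p = 0.381), and of -0.37 (adjusted p = 0.572) without USB1 KO library 3. The 3 USB1 KO libraries lay below the 3 Control libraries, which 29.5% of all miRNAs tested did in one direction or the other. miR-1227-3p had 2.40, 2.66 and 4.85 CPM in USB1 KO cells and 5.42, 6.40 and 3.53 CPM in Control cells (log2 change -0.74, SE 0.37, adjusted p = 0.306).

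miR-877-5p had 79.0, 78.4 and 67.0 CPM in USB1 KO cells and 68.5, 72.1 and 70.2 CPM in Control cells, a log2 change of 0.09 (SE 0.16, edgeR adjusted p = 0.796). miR-877-3p had 11.7, 12.4 and 10.7 CPM in USB1 KO cells and 12.7, 14.1 and 12.7 CPM in Control cells, a log2 change of -0.17 (SE 0.25, adjusted p = 0.756). The 5p groups overlapped and the 3p groups did not, as for 29.5% of all miRNAs tested.

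The 1 mirtron called within a line was miR-1226-3p in USB1 KO shPARN against Control shPARN cells, where it fell by 0.91 on the log2 scale (SE 0.24, edgeR adjusted p = 0.0278). In this comparison 9.19% of miRNAs were called, 4.2% as lower. miR-1226-3p had 16.5, 25.5 and 25.2 CPM in USB1 KO shPARN cells and 44.6, 53.2 and 29.0 CPM in Control shPARN cells, with no overlap between the groups (30.5% of all miRNAs tested). DESeq2 also called it (-0.94, adjusted p = 0.00356), where it called 14.6% of all miRNAs. At an unadjusted edgeR p under 0.05 there were 2 of 4 mirtrons (27.2% of all miRNAs). The adjusted p was over 0.05 without USB1 KO shPARN library 1 (-0.75, 0.0696), which is also the library of high miR-143-3p, without Control shPARN library 1 (-0.89, 0.0606) or library 2 (-0.74, 0.0985), with library totals in place of TMM (-0.83, 0.0533), and in a fit of these 2 groups alone (-0.93, 0.079). The part of miR-143-3p in this result was not tested. The call is of the 3p arm alone. The other arm, miR-1226-5p, had 5.19, 2.56 and 3.73 CPM in USB1 KO shPARN cells and 3.64, 3.47 and 3.36 CPM in Control shPARN cells, which overlapped. The 5p share of the miR-1226 counts was 23.9, 9.13 and 12.9% in USB1 KO shPARN cells. In Control shPARN cells it was 7.56, 6.13 and 10.4%, and this share was not tested.

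For miR-877 in the same comparison the 2 arms had changes of opposite sign. miR-877-5p had 90.3, 89.0 and 96.1 CPM in USB1 KO shPARN cells and 81.9, 78.2 and 63.6 CPM in Control shPARN cells (log2 change 0.30, SE 0.16, edgeR adjusted p = 0.243). miR-877-3p had 9.12, 11.8 and 6.82 CPM in USB1 KO shPARN cells and 16.9, 10.7 and 14.6 CPM in Control shPARN cells (log2 change -0.60, SE 0.24, adjusted p = 0.134). The groups did not overlap for the 5p arm (30.5% of all miRNAs tested) and overlapped for the 3p arm, and neither arm was called.

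USB1 KO shPARN against USB1 KO cells gave 0 of 4 mirtrons, where 14.8% of miRNAs were called. 0 mirtrons had an unadjusted p under 0.05 (238 of 881 miRNAs), and DESeq2 called 0 (18.5%). The 130 calls behind the 14.8% fell to 39 without USB1 KO library 2 and to 50 in a fit of these 2 groups alone. miR-1226-3p gave a log2 change of -0.29 (SE 0.24, edgeR adjusted p = 0.482), miR-877-5p 0.29 (SE 0.16, adjusted p = 0.248) and miR-877-3p -0.33 (SE 0.25, adjusted p = 0.436). The groups did not overlap for miR-877-5p, higher, and miR-1226-3p, lower, nor for 29.4% of all miRNAs tested. Control shPARN against Control cells gave 0 of 4 (1.48% of miRNAs), again 0 unadjusted (13.4% of all miRNAs) and 0 by DESeq2 (4.09%). The groups overlapped for all 4, and did not for 22.5% of all miRNAs tested. There miR-1226-3p gave 0.22 (SE 0.23, adjusted p = 0.745), miR-877-5p 0.09 (SE 0.16) and miR-877-3p 0.10 (SE 0.24). These 3 values are within their SE of 0 and turned negative with library totals in place of TMM, a scaling that moved the median of all miRNAs by -0.26. The interaction of USB1 KO and shPARN gave 0 of 4 (1.82% of miRNAs), 0 unadjusted (18.0% of all miRNAs) and 0 by DESeq2 (4.2%), with -0.51 for miR-1226-3p (SE 0.33, adjusted p = 0.446), 0.21 for miR-877-5p (SE 0.22) and -0.43 for miR-877-3p (SE 0.35).

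The share of miR-877 counts on the 5p arm does not depend on the scaling of a library. It was 81.4 to 89.8% in the hESC libraries and 81.4 to 93.4% in the K562 libraries. In USB1 KO shPARN cells it was 90.8, 88.3 and 93.4%, against 82.9, 87.9 and 81.4% in Control shPARN cells and 87.1, 86.3 and 86.3% in USB1 KO cells. The difference of the means was 6.76 points over Control shPARN cells and 4.26 points over USB1 KO cells, with a two-sided exact permutation p of 0.1 in each, the smallest that 3 libraries against 3 allow, and 0.25 after adjustment over 10 such comparisons. USB1 KO cells exceeded Control cells by 2.32 points (exact p = 0.1, adjusted 0.25), and Control shPARN cells differed from Control cells by -0.18 points (exact p = 1). Against WT hESCs the difference was 2.49 points in USB1 mutants (exact p = 0.2, adjusted 0.333), 3.75 without Dox (exact p = 0.1, adjusted 0.25), 1.88 with Dox (exact p = 0.4, adjusted 0.5) and 0.0752 with shPAPD5 (exact p = 1). Within the mutant background it was -1.88 with Dox against without Dox (exact p = 0.3, adjusted 0.429) and -2.41 for shPAPD5 against USB1 mutants (exact p = 0.2, adjusted 0.333). The smallest p of 0.1 means that no such comparison could pass 0.05.

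The 2 most abundant mirtrons can also be set against each other within a library. This ratio was chosen after the values were seen and is given with no test. There were 3.73, 4.12 and 3.65 miR-877-5p counts per miR-1226-3p count in USB1 mutants, 3.93, 3.89 and 3.94 with Dox, 4.25, 5.997 and 4.23 without Dox, 3.04, 3.72 and 3.53 with shPAPD5, and 7.62, 4.33 and 4.42 in WT hESCs. In K562 there were 5.47, 3.49 and 3.81 in USB1 KO shPARN cells against 1.84, 1.47 and 2.19 in Control shPARN cells, and 2.76, 2.92 and 2.51 in USB1 KO cells against 1.74, 2.21 and 1.90 in Control cells. The libraries of USB1 mutants, with Dox and with shPAPD5 were below the 3 WT libraries, and those without Dox overlapped them. The 3 USB1 KO libraries were above the 3 Control libraries, and the 3 USB1 KO shPARN libraries above the 3 Control shPARN libraries. How many other pairs of miRNAs separate in this way was not counted, and single miRNAs did so in 19.3% to 30.5% of cases in the comparisons that separated. The ratio reuses the miR-1226-3p values compared above and is not independent of them.

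**Figure D4:**
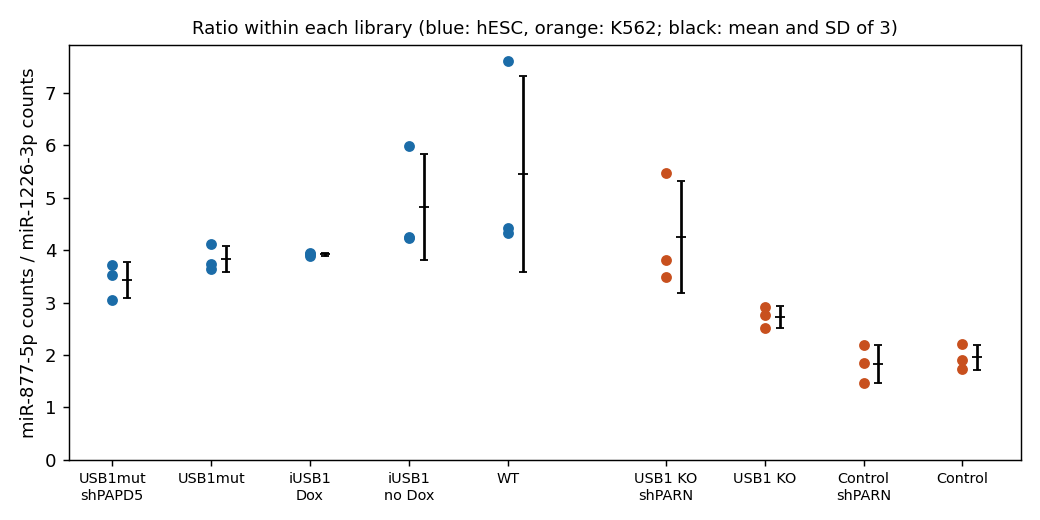
Points are miR-877-5p counts divided by miR-1226-3p counts in each library (y axis, from 0), blue for the hESC groups and orange for the K562 groups, and black bars are the mean and SD of 3. The USB1 mutants sit between 3.65 and 4.12, WT hESCs between 4.33 and 7.62, and the group without Dox between 4.23 and 5.997. The USB1 KO libraries sit between 2.51 and 2.92 and the Control libraries between 1.74 and 2.21. How often other pairs of miRNAs separate was not counted.

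The difference in the effect of USB1 loss between the lines was tested in a fit of the 4 groups concerned. The hESCs carry a small deletion in USB1 and the K562 cells a separately made knockout. Line, lesion and picked clone therefore cannot be told apart here. Of 5 mirtrons tested 0 were called, where 2.76% of 905 miRNAs were, with 1 at an unadjusted p under 0.05 (12.7% of all miRNAs). That was miR-1226-3p, whose log2 change in hESCs exceeded that in K562 by 0.95 (SE 0.31, edgeR adjusted p = 0.136). DESeq2, which called 5.41% of all miRNAs, gave 0.98 and called it (adjusted p = 0.0266). miR-877-5p gave 0.01 (SE 0.26) and miR-877-3p -0.01 (SE 0.30), and both changed sign in other settings.

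Between the lines themselves, 5 of 5 mirtrons were higher in WT hESCs than in K562 Control cells under TMM scaling, where 32.4% of 905 miRNAs were called higher and 62.7% in either direction. Of the 5, miR-1224-5p had 0 to 3 counts in the K562 libraries that list it. It passed the filter on low counts only through the hESC libraries, so the filter itself favoured its call as higher. Over all miRNAs 293 were called higher and 274 lower with TMM, and 163 higher and 495 lower with library totals. With TMM over both lines, miR-877-5p had 245, 202 and 193 CPM in WT hESCs and 48.0, 50.3 and 50.9 CPM in K562 Control cells, a log2 change of 2.10 (SE 0.19, edgeR adjusted p = 2.12e-07). miR-877-3p had 39.6, 36.3 and 39.9 CPM in WT hESCs and 8.90, 9.83 and 9.21 CPM in K562 Control cells (log2 change 2.05, SE 0.21, adjusted p = 9.85e-07). Under this scaling the libraries of the lines did not overlap for either arm, nor for the other 3 mirtrons (70.8% of all miRNAs tested). For miR-1224-5p the closest were WT library 1 at 0.236 CPM and Control library 1 at 0.193 CPM, with 3 counts each. These libraries held 17359868 and 9914491 miRNA counts, so per miRNA count WT library 1 was the lower and the lines overlapped. The hESC markers in Control libraries 1 and 2 amounted to 0.332 and 0.351% of their mean level in hESCs.

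miR-1227-3p (11.6, 6.53 and 7.60 CPM in WT hESCs and 3.80, 4.47 and 2.56 CPM in K562 Control cells) gave 1.26 (SE 0.37, edgeR adjusted p = 0.00883). miR-1226-3p (32.2, 46.7 and 43.7 CPM in WT hESCs and 27.6, 22.7 and 26.7 CPM in K562 Control cells) gave 0.67 (SE 0.22, adjusted p = 0.015), and its adjusted p was 0.0657, 0.0508 and 0.0743 without WT library 2, WT library 3 and Control library 2. miR-1224-5p had 3, 24 and 17 counts in WT hESCs and 3, 0 and 2 in K562 Control cells, a ratio per miRNA count of 4.89 (exact 95% interval 1.95 to 15.8, for counting error only).

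These differences depend on how the lines are put on one scale. Library totals in place of TMM moved the median of all miRNAs tested by -1.19 on the log2 scale, to -1.26. The change was then 0.93 for miR-877-5p (edgeR adjusted p = 0.00183), 0.87 for miR-877-3p (adjusted p = 0.00478), 0.08 for miR-1227-3p (adjusted p = 0.876) and -0.52 for miR-1226-3p (adjusted p = 0.0586). Under TMM miR-1226-3p lay 0.74 and miR-877-5p 2.17 above the median of all miRNAs tested, distances that a change of scaling leaves nearly as they are by construction, since it moves all miRNAs together.

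**Figure D5:**
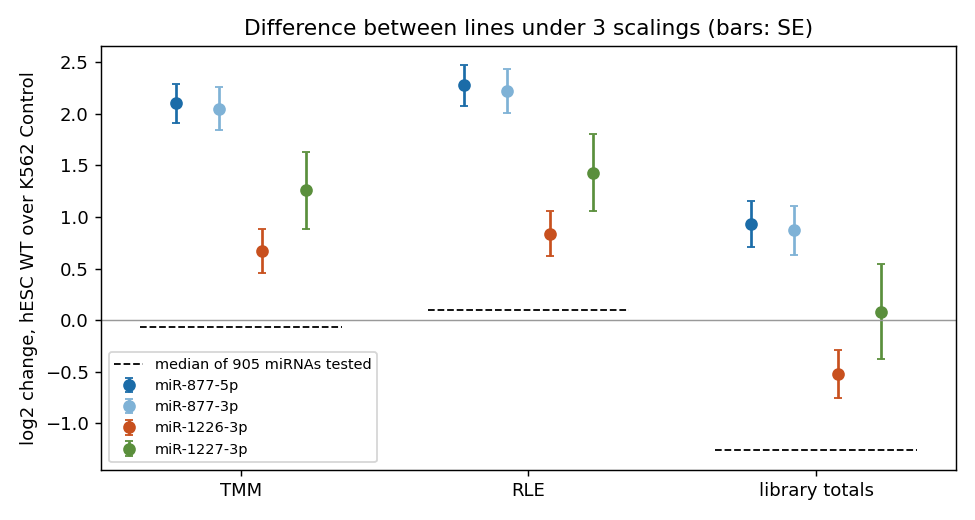
Points are log2 changes of 4 mirtrons in WT hESCs over K562 Control cells (y axis) with TMM, RLE size factors or library totals as the scaling (x axis), bars are the SE, and the dashed line is the median of the 905 miRNAs tested. With library totals that median is -1.26 and miR-1226-3p is at -0.52, against 0.67 with TMM, since the scaling moves mirtrons and median together.

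The lowest members were described by counts alone in K562. miR-1229-3p had 2, 1 and 0 counts in USB1 KO shPARN cells, 3, 4 and 0 in USB1 KO cells and 6 in each Control shPARN library, and was unlisted for Control cells. miR-1236-3p had 17, 8 and 1 counts in USB1 KO shPARN cells, 6, 9 and 0 in USB1 KO cells and 9, 0 and 9 in Control shPARN cells, and was unlisted for Control cells as well. miR-1238-3p had 0 to 5 counts in every library that lists it, in both lines. These 3 were too low or unlisted in K562 and were not tested there.

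The miRNAs whose levels followed miR-877-5p most closely over the 15 hESC libraries were miR-365b-3p (Pearson r = 0.89), miR-365a-3p (0.89) and miR-1303 (0.72), among 417 miRNAs with a median r of 0.02. Over the 12 K562 libraries they were miR-1273h-5p (0.85), miR-365a-5p (0.84) and miR-4521 (0.81), among 418 with a median r of 0.09. These correlations are descriptions: the points share library depth, scaling and the groups, and the miR-365a and miR-365b 3p arms have the same sequence, so their counts cannot be told apart.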

How the data were processed

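The deposited tables hold unnormalised counts of each mature miRNA, with a column for every library. According to the labels and methods, the authors prepared Trizol RNA with a Lexogen small RNA kit and size selection, and processed NovaSeq reads with cutadapt 2.5 (adapters), Bowtie2 2.2.9 (alignment to miRBase, no mismatch allowed in the seed) and SAMtools 1.3.1 (sorting before counting). The 3 Control columns in K562 are matched to their group by the table named in the labels and are numbered as in the table. All 27 libraries were used and 0 columns left out. Adaptor entries (0.00478 to 0.206% of counts) were removed.

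edgeR 4.0.16 quasi-likelihood tests (R 4.3.3, limma 3.58.1, TMM, robust, filterByExpr with a minimum count of 10 and a minimum total of 15) were fitted per line on miRNAs listed in every table of the fit: 998 of 1251 passed in hESCs, 881 of 1080 in K562 and 905 of 1068 in the 4 groups of both lines, where the miRNAs tested held as little as 63.5% of a library's counts. Benjamini-Hochberg adjustment ran over all miRNAs tested in each of 13 comparisons, and a miRNA was called at an adjusted p under 0.05. DESeq2 1.42.0, other scalings, no filter, fits of the groups compared only, a replicate block and leaving out each library were the alternatives. Sequences and coordinates come from RefSeq tables (GRCh38.p14), which matched all 10 members; introns come from GENCODE v44.

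The members, the lists and the comparisons were chosen with earlier results of these data known. By rule, all 10 members are named, and rows of the comparison lists are named if called, at most 5 in a comparison. The miRNAs most like miR-877-5p are the 3 of highest Pearson r of log2 CPM (prior count 2) among those whose mean log2 CPM reached 3.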

Additional observations from a re-analysis of the deposited data

How the results depend on the processing

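Counts of called mirtrons moved in few settings. The 1 call in USB1 KO shPARN against Control shPARN cells became 0 with library totals and 0 with only the groups compared, and was 0 to 1 when leaving out a library. The 0 calls of iUSB1-WT without Dox against WT became 0 to 1 when leaving out a library, and the 0 of the USB1 loss effect between lines became 1 with DESeq2. The 5 calls between lines became 3 with library totals and were 4 to 5 when leaving out a library.

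A called change turned sign between lines, where miR-1226-3p (0.67) gave -0.52 with library totals. Other sign changes were of values that were not called. With library totals miR-877-5p gave 0.032 in shPAPD5 against USB1 mutants, -0.18 in Control shPARN against Control and -0.039 for the USB1 loss effect between lines. In Control shPARN against Control miR-877-3p gave -0.16 and miR-1226-3p -0.047 with library totals. The USB1 loss effect on miR-877-3p was 0.0067 with RLE size factors and 0.040 with no low-count filter. Leaving out each library in turn gave, for miR-877-3p, -0.19 to 0.0036 (Dox against WT), -0.011 to 0.090 (shPAPD5 against WT), -0.13 to 0.087 (Dox against without Dox), -0.032 to 0.28 (Control shPARN against Control) and -0.077 to 0.093 (loss effect). For miR-877-5p it gave -0.11 to 0.26 (shPAPD5 against WT), -0.29 to 0.075 (shPAPD5 against USB1 mutants) and -0.076 to 0.14 (loss effect), and for miR-1226-3p -0.27 to 0.14 (Dox against without Dox) and -0.083 to 0.17 (shPAPD5 against USB1 mutants). The miR-877 5p share differed by -1.29 to 1.74 points (shPAPD5 against WT) and -2.12 to 1.17 points (Control shPARN against Control). The cause was not tested.

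The replicate numbers of the labels showed little pairing of the samples by the median. Same-numbered libraries had a median correlation of deviations of 0.03 in hESCs and 0.01 in K562, over 0.1 in 8 of 30 and 5 of 18 pairs. Their highest values were 0.348 and 0.344, against 0.227 and 0.241 for differently numbered libraries. Pairing of only some samples was not tested. With the replicate block the counts of called mirtrons were 1 in USB1 KO shPARN against Control shPARN cells (miR-1226-3p -0.90, edgeR adjusted p = 0.044) and 0 in the other 11 comparisons so fitted.

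Calls over all miRNAs, against which the mirtrons are read, also moved. A fit of the groups compared alone gave 0 calls in place of 74 (USB1 mutants against WT), 8 in place of 43 (without Dox against WT), 50 in place of 130 (USB1 KO shPARN against USB1 KO), 49 in place of 81 (USB1 KO shPARN against Control shPARN) and 27 in place of 13 (Control shPARN against Control). Leaving out a library gave as few as 37, 12, 39, 35 and 1 calls in these comparisons, 25 in place of 82 with Dox against WT, 19 in place of 45 in USB1 KO against Control, 0 in place of 16 in the interaction and 12 in place of 25 in the loss effect. With library totals the split of higher and lower calls was 31 and 77 in place of 80 and 50 (USB1 KO shPARN against USB1 KO), 8 and 17 in place of 11 and 2 (Control shPARN against Control), 16 and 46 in place of 29 and 45 (USB1 mutants against WT), 4 and 3 in place of 12 and 4 (interaction) and 12 and 9 in place of 18 and 7 (loss effect).

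miR-1225, miR-1238 and, in K562, miR-1224, miR-1229 and miR-1236 had few counts or were unlisted. Few counts limit their precision.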

Other observations

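Other miRNAs of intronic hairpins were counted beside the mirtrons above. In USB1 mutants against WT hESCs, where 7.41% of all miRNAs tested were called, 0 of 4 tested miRNAs from the list of other early mirtrons were called, with a median log2 change of 0.11, and of 52 tested miRNAs in the name range miR-6726 to miR-6895 0 were called, with a median of 0.07 beside 0.04 over all miRNAs tested. Only 7 of the 153 RefSeq hairpins of that name range fill an annotated intron exactly. Among 24 miRNAs of the 15 other hairpins that do fill one, 7 were tested, 0 called, and the median was 0.48.

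In K562, 2 other early mirtrons and 4 miRNAs of other intron-filling hairpins were tested, and 0 were called in the comparisons of this paragraph. In USB1 KO against Control cells their median log2 changes were 0.87 and 0.64, beside -0.29 for the mirtrons above. In USB1 KO shPARN cells they were 0.02 and -0.35 against USB1 KO cells (mirtrons -0.08). Against Control shPARN cells they were 0.32 and 0.30 (mirtrons -0.39). In the name range miR-6726 to miR-6895, 45 miRNAs were tested in K562. In USB1 KO against Control cells 0 were called higher and 1 lower (5.11% of all miRNAs were called). In USB1 KO shPARN cells 1 was called higher and 1 lower against USB1 KO cells (14.8%), and 1 and 1 against Control shPARN cells (9.19%). miR-6842-3p of that range fell by 1.10 on the log2 scale in USB1 KO against Control cells (SE 0.26, edgeR adjusted p = 0.0222) and by 1.08 in USB1 KO shPARN against Control shPARN cells (SE 0.25, adjusted p = 0.0174). miR-6876-3p rose by 1.49 in USB1 KO shPARN against USB1 KO cells (SE 0.38, adjusted p = 0.0247) and by 2.01 in USB1 KO shPARN against Control shPARN cells (SE 0.38, adjusted p = 0.00591). The comparisons that share USB1 KO shPARN libraries are not independent. In hESCs the 1 call of the range was miR-6806-3p, which fell by 1.01 with Dox against WT (SE 0.30, adjusted p = 0.0445). There 52 miRNAs of the range were tested, and 8.22% of all miRNAs were called.

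USB1 KO shPARN against USB1 KO cells also had miR-6805-3p among the calls of that range, at -3.47 (SE 0.92, edgeR adjusted p = 0.0283). This miRNA was low, at a mean log2 CPM of 0.75. In WT hESCs against K562 Control cells 14 of 51 tested miRNAs of the range were called higher and 6 lower (293 and 274 of all 905 tested). The call of lowest edgeR adjusted p was miR-6842-3p at -2.57 (SE 0.33, adjusted p = 1.16e-05). Next came miR-6815-5p (3.93, adjusted p = 9.48e-05), miR-6868-3p (2.42, 0.000173), miR-6775-3p (3.97, 0.000218) and miR-6737-3p (2.54, 0.000315), all higher. Their mean log2 CPM was 0.75, 3.21, 0.20 and 1.37 in this order. The opposite arm miR-1226-5p (1.40, SE 0.45, adjusted p = 0.0151) and miR-1234-3p (1.31, SE 0.47, adjusted p = 0.0272) were called higher there, as was miR-6807-5p, whose hairpin fills an intron (2.69, SE 0.57, adjusted p = 0.000936). The values between lines are under TMM scaling over both lines.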
